A study of Mus musculus with 6 samples.

Results

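The 6 Iroquois homeobox genes Irx1 to Irx6 and 3 further regulators linked to the identity of the heart chambers, Smyd1, Nr2f1 and Nr2f2, were followed in mouse embryonic hearts with and without Arid3b, a DNA-binding protein of the ARID family. Their probes were taken as all non-control probes whose RefSeq accession maps to these 9 genes. This gave 12 of the 39429 probes on the array, and 9 of the 21798 genes tested. Hearts were taken at embryonic day 9.5 (E9.5). Each sample was total RNA from a pool of 4 embryos, and the dissected piece held the heart tube together with pharyngeal mesoderm and endoderm lying under it. There were 3 wild-type pools and 3 Arid3b-null pools, and each pool was labelled with the dye Cy3 and hybridised to 1 array. The strain, the structure of the null allele and the sex of the embryos were not given in the sources used here.

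Iroquois proteins are transcription factors of the TALE homeodomain class, and in mammals their genes lie in a pair of clusters that arose by duplication. The IrxA cluster holds Irx1, Irx2 and Irx4, and the IrxB cluster holds Irx3, Irx5 and Irx6. Irx4 is restricted to ventricular muscle from the early heart tube onward, and in chick it holds ventricular myosin on and atrial myosin off. Irx3 and Irx5 shape ventricular conduction and repolarisation, in part through potassium channel and connexin genes. Smyd1 encodes a muscle histone methyltransferase that is needed for growth of the ventricles. Nr2f1 and Nr2f2 encode the orphan nuclear receptors COUP-TFI and COUP-TFII, and the second of these maintains atrial as opposed to ventricular identity and the identity of veins.

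Levels are given as the log2 processed signal of a spot minus the 75th percentile of its array, so a value of 0 is the signal at that percentile and a change of 1 is a doubling. Probes differ in how strongly they bind, so the level of one gene was not set against the level of another. A gene was called where the Benjamini-Hochberg adjusted p from limma, taken over all genes tested, was under 0.05. On each array 27136 to 31039 of its 43020 non-control spots passed as well above background, and none was saturated. Before scaling, wild-type pools 1, 2 and 3 had log2 75th percentiles of 9.5, 9.57 and 10.16. For null pools 1, 2 and 3 this percentile was 9.48, 9.29 and 9.02. Every null array was thus dimmer than every wild-type array, though null pool 1 only barely. What this difference in brightness adds to the changes after scaling was not tested. Arid3b stood at 2.91, 3.40 and 3.69 in the wild-type pools and at 1.07, 0.52 and 0.45 in the null pools, a change of -2.65 (SE 0.26) on the log2 scale with a limma adjusted p of 0.0019. Each slide carried 1 wild-type and 1 null array, and the wild-type array always lay at the same place on the slide, so that place and genotype cannot be told apart. The labels do not say whether the pools came from separate litters, so the p-values measure the spread between these pools.

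In the null hearts Irx4 and Smyd1 fell and Irx6 rose, while the remaining 6 of the 9 genes were not called. Over all genes tested, 10.4% were called in either direction, with 6.6% called higher and 3.83% called lower. The 6 Iroquois genes had a median change of 0.28, and all 9 genes one of 0.27, beside 0.03 over all genes tested. The wild-type and null values did not overlap for 5 of the 9 genes, whereas this held for 33% of all genes tested. The null pools lay above the wild-type pools for Irx3, Irx6 and Nr2f2 (18% of all genes tested) and below them for Irx4 and Smyd1 (15% of all genes tested). All 12 probes were well above background on all 6 arrays.

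**Figure D1:**
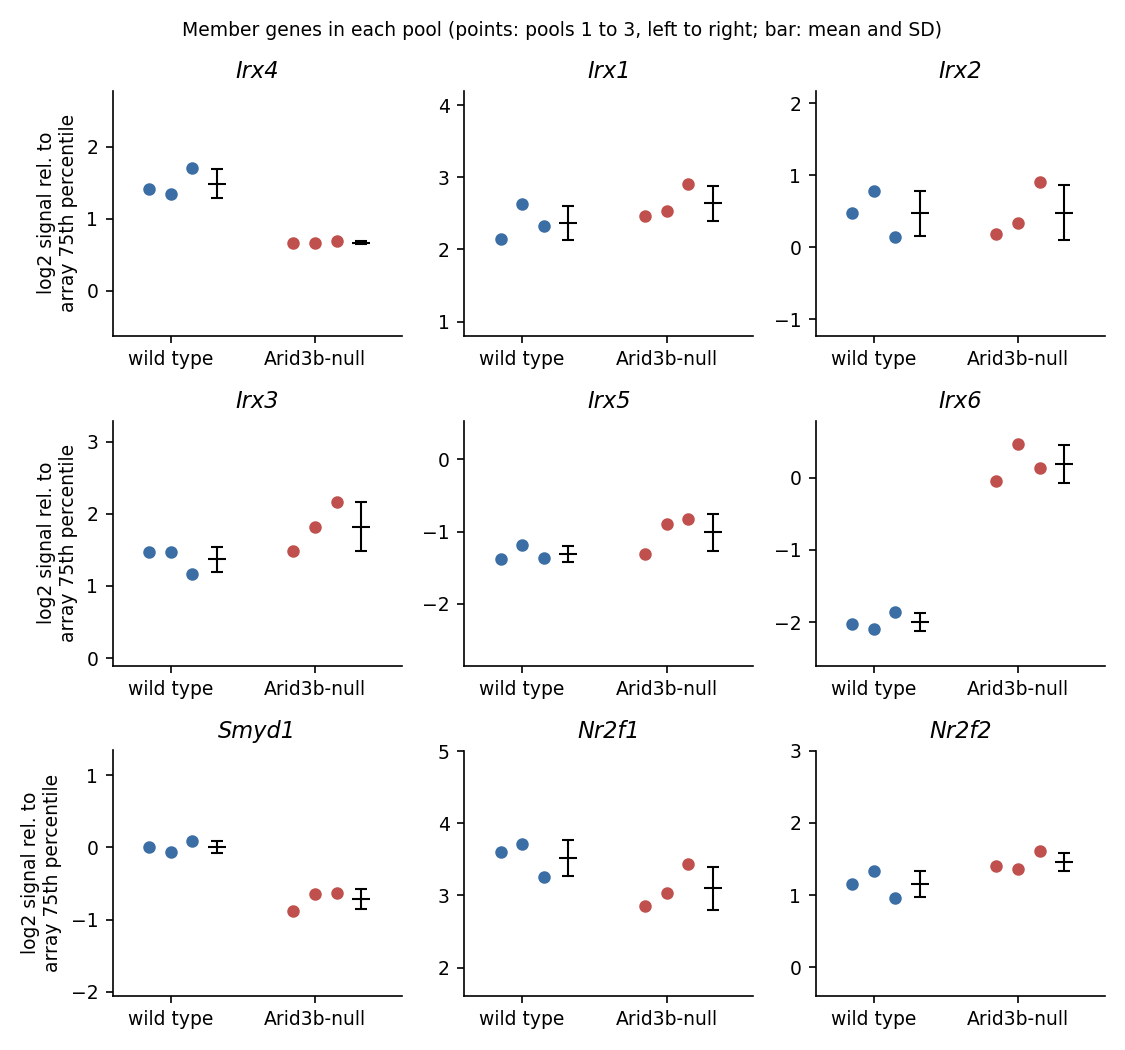
Log2 signal relative to the array 75th percentile (vertical axis) of each of the 9 genes in the 3 wild-type pools (blue) and 3 Arid3b-null pools (red), each panel spanning the same range, with the mean and SD as a bar. The null pools of Irx4 lie together between 0.66 and 0.69 under the wild-type pools, those of Irx6 lie between -0.04 and 0.47 above them, and Irx2 overlaps throughout.

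Irx4, the ventricular member of the IrxA cluster, had levels of 1.42, 1.34 and 1.71 in wild-type pools 1, 2 and 3. In the null pools its levels were 0.66, 0.67 and 0.69. Every null pool lay under every wild-type pool, and the 3 null pools lay much closer together (0.67 ± 0.02, SD, n = 3) than the wild-type pools (1.49 ± 0.20, SD, n = 3). The change was -0.82 (SE 0.16, 95% interval -1.20 to -0.44), which leaves 56.7% of the wild-type signal, with a limma adjusted p of 0.0227. Within the 3 slides the differences were -0.76, -0.67 and -1.02. The gene ranked 1179 of 21798 by p, and its call was lost in 8 of 17 alternative settings. The adjusted p was 0.13 with the slide as replicate block and 0.068 without the filter on dim probes. The adjusted p was 0.0501, 0.06 and 0.0602 without wild-type pools 1, 2 and 3, and 0.05, 0.0862 and 0.0722 without null pools 1, 2 and 3, with changes between -0.71 and -0.89 and none of these values under the threshold. In RNA from a whole dissected heart, fewer ventricular muscle cells and less Irx4 RNA per cell cannot be told apart. Beside this fall, none of 12 markers of heart muscle cells was called, 1 was higher and 1 lower at an unadjusted p under 0.05, and their median change was -0.04. Their summed linear signal, in multiples of the array 75th percentile, was 811 to 874 in wild-type pools and 810 to 949 in null pools. Most of this sum comes from Actc1 and Tpm1, with wild-type mean levels of 8.65 and 7.52 on the log2 scale.

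Smyd1 is measured by a pair of probes. The brighter one, which stands for the gene, read 0.00, -0.06 and 0.09 in the wild-type pools and -0.88, -0.65 and -0.63 in the null pools. The groups did not overlap, and the null mean of -0.72 ± 0.14 (SD, n = 3) lay under the wild-type mean of 0.01 ± 0.08 (SD, n = 3). This was a change of -0.72 (SE 0.15, 95% interval -1.08 to -0.37), or 1.65-fold lower signal, with a limma adjusted p of 0.0281. The differences within the slides were -0.87, -0.59 and -0.71. The dimmer probe read -0.61, -0.77 and -1.16 in wild-type pools and -1.49, -1.37 and -1.0 in null pools. Its groups overlapped, since null pool 3 lay above wild-type pool 3, and its change of -0.44 (SE 0.21) was not called (limma adjusted p 0.232 over probes). With the mean of both probes in place of the brighter one, Smyd1 changed by -0.58 and the adjusted p was 0.0622. It was 0.171 with the slide as replicate block and 0.0839 without the filter on dim probes. The adjusted p was 0.0673, 0.0847 and 0.0797 without wild-type pools 1, 2 and 3, and 0.0656, 0.0905 and 0.0742 without null pools 1, 2 and 3.

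RefSeq promoter windows on GRCm38.p6 matched 6 of the 9 genes, which were Irx2, Irx4, Irx3, Smyd1, Nr2f1 and Nr2f2. The 250 bases that end just before the gene start are shown for Irx4 and Smyd1 because these are the members that fell. Irx4 lies on the plus strand (chr13:73260247-73260496) and Smyd1 on the minus strand (chr6:71262282-71262531), both read 5′ to 3′ in the direction of the gene. Capitals mark matches, on either strand, to the motifs searched.
Irx4: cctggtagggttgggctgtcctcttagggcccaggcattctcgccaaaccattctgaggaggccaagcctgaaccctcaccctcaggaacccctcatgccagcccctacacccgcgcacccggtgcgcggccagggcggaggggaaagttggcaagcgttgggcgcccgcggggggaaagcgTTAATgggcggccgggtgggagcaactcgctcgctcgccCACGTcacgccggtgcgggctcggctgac
Smyd1: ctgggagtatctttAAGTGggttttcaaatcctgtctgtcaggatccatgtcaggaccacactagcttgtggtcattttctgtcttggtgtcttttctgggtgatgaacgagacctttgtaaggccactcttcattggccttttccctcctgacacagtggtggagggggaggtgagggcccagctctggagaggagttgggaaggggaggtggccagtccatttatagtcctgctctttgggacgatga
The windows shared none of the motifs searched. Irx4 held 1 match to ATTAA, an AT-rich core of the kind bound by homeodomain and ARID proteins, 68 bases before the start, and 1 match to ACGTG, the hypoxia response core, 29 bases before it. Smyd1 held 1 match to AAGTG, the core bound by NKX2 factors, 236 bases before its start. Neither window held the E-box CANNTG. Neither held the GATA motif AGATAA, the T-box motif AGGTGT or the MEF2 motif. Of 32851 promoter windows of this length, 24.9% held the AT-rich core, 16.6% the hypoxia core, 40.7% the NKX2 core, 66.2% the E-box, 9.99% the GATA motif, 11.8% the T-box motif and 2.92% the MEF2 motif. An E-box can overlap the hypoxia core. A match is a run of letters and not a measured binding site.

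Irx6, whose role in the heart is the least well described of the family, was the member with the largest change. Its levels were -2.03, -2.10 and -1.86 in the wild-type pools. In the null pools they were -0.04, 0.47 and 0.13. The groups stood far apart, with means of -2.0 ± 0.12 and 0.19 ± 0.26 (SD, n = 3 each). The change was 2.18 (SE 0.18, 95% interval 1.75 to 2.61), which is 4.54-fold higher signal (95% interval 3.37 to 6.12), with a limma adjusted p of 0.00111. The differences within the slides were 1.99, 2.57 and 1.99. By the size of its change Irx6 lay at the 99.2 percentile of all genes tested, and it ranked 84 of 21798 by p. It was called higher under all 17 alternative settings, with changes from 1.94 to 2.39 and a largest adjusted p of 0.00961.

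Iroquois genes are also active outside heart muscle, in neural tissue among other places, and the dissected piece held pharyngeal tissue. Of 10 measured neural markers 1 was called higher and 4 lower in the null hearts, with a median change of -0.85. Over the 17 alternative settings 2 to 5 were called lower and 0 to 1 higher. Averaged over these markers, the log2 deviation from the wild-type mean was -0.89, -1.18 and -0.85 in the null pools and -0.17 to 0.12 in the wild-type pools. Their summed linear signal, to which the called-higher Sox3 adds, was 1.87 to 2.60 in wild-type pools and 1.93 to 2.09 in null pools. The 4 neural markers called lower were Nkx6-1, Olig3, Tubb3 and Dcx. After normexp background correction Olig3 changed by -0.01 and Dcx by -0.24, neither called, against -2.95 and -1.31 in the main fit. Nkx6-1 (-2.08) and Tubb3 (-0.81) stayed called lower there. Of the 17 alternative settings, Nkx6-1 kept its call in all 17, Tubb3 in 11, Dcx in 10 and Sox3 in 9. Olig3 was well above background on only 3 arrays, the fewest that the filter allows. It read -5.24, -5.04 and -5.53 in wild-type pools and -8.46, -8.61 and -7.61 in null pools. Its 3 brightest arrays are thus the wild-type ones, and its call and its part in the median and averages are no support for a fall. The size of the neural fall depends on how background is treated. Of 8 markers of pharyngeal endoderm 1 was called higher and 1 lower, with sums of 3.03 to 4.31 and 3.31 to 3.52. All 6 megakaryocyte and platelet markers were called higher, with a median change of 2.90 and sums of 2.55 to 5.13 against 36.2 to 59.7. The part of these markers in the change of Irx6 was not tested.

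The other IrxB genes, Irx3 and Irx5, lay higher in the null hearts on average but were not called. Irx3 read 1.47, 1.47 and 1.17 in wild-type pools and 1.49, 1.82 and 2.17 in null pools. Its groups did not overlap, although null pool 1 lay barely above the highest wild-type pool, and the change was 0.46 (SE 0.21, 95% interval -0.04 to 0.96, limma adjusted p 0.219). Without null pool 3, the highest, the change was 0.29. Irx5 read -1.38, -1.19 and -1.37 in wild-type pools and -1.31, -0.90 and -0.82 in null pools. Its groups overlapped through null pool 1, and the change was 0.30 (SE 0.18, 95% interval -0.13 to 0.73, limma adjusted p 0.344). The change of Irx6 exceeded that of Irx5 by 1.88 (SE 0.18) and that of Irx3 by 1.72 (SE 0.27), in the same direction within all 3 slides.

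In the IrxA cluster, Irx1 and Irx2, which are expressed in the ventricular septum, were not called. Irx1 read 2.15, 2.63 and 2.33 in wild-type pools and 2.47, 2.53 and 2.91 in null pools, with a change of 0.27 (SE 0.20, 95% interval -0.20 to 0.74, limma adjusted p 0.439). Its groups overlapped, wild-type pool 2 exceeded both null pools 1 and 2, and the change was 0.13 without null pool 3 and 0.16 without wild-type pool 1. Irx2 read 0.47, 0.78 and 0.15 in wild-type pools and 0.19, 0.34 and 0.91 in null pools, with a change of 0.01 (SE 0.25, 95% interval -0.57 to 0.60, limma adjusted p 0.981). Its sign had no stable direction: the change was -0.12 with scaling to the array median and -0.01 after normexp background correction. The second, dimmer Irx2 probe read -3.53, -2.83 and -2.53 in wild-type pools and -2.67, -3.53 and -2.93 in null pools, a change of -0.08 (SE 0.32). The change of Irx4 differed from that of Irx1 by -1.09 (SE 0.24) and from that of Irx2 by -0.83 (SE 0.36), both with the same sign within all 3 slides.

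Nr2f1 and Nr2f2, the orphan receptors tied to atrial and venous fate, had mean changes of opposite sign, and neither was called. Nr2f1 read 3.60, 3.72 and 3.25 in wild-type pools and 2.85, 3.03 and 3.43 in null pools. Null pool 3 lay inside the wild-type range, and the change was -0.42 (SE 0.21, 95% interval -0.92 to 0.08, limma adjusted p 0.262). Its second probe read 1.87, 1.96 and 1.40 in wild-type pools and 1.5, 1.27 and 1.79 in null pools, with a change of -0.23 (SE 0.22). Null pool 3 was again the highest of the null pools on that probe. Nr2f2 read 1.16, 1.33 and 0.96 in wild-type pools and 1.41, 1.36 and 1.61 in null pools. Its groups did not overlap, and the change was 0.31 (SE 0.17, 95% interval -0.08 to 0.70, limma adjusted p 0.287). The change of Nr2f1 differed from that of Nr2f2 by -0.73 (SE 0.12), with -1.0, -0.73 and -0.46 within the slides. For each of the 5 pairs of members compared, the exact two-sided permutation test over arrays gave p = 0.1, also after adjustment over the 5 pairs, and 0.1 is the smallest p that 3 against 3 arrays allow. At this p the wild-type and null differences of a pair do not overlap. The same sign within all 3 slides follows from that and is no further support.

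**Figure D2:**
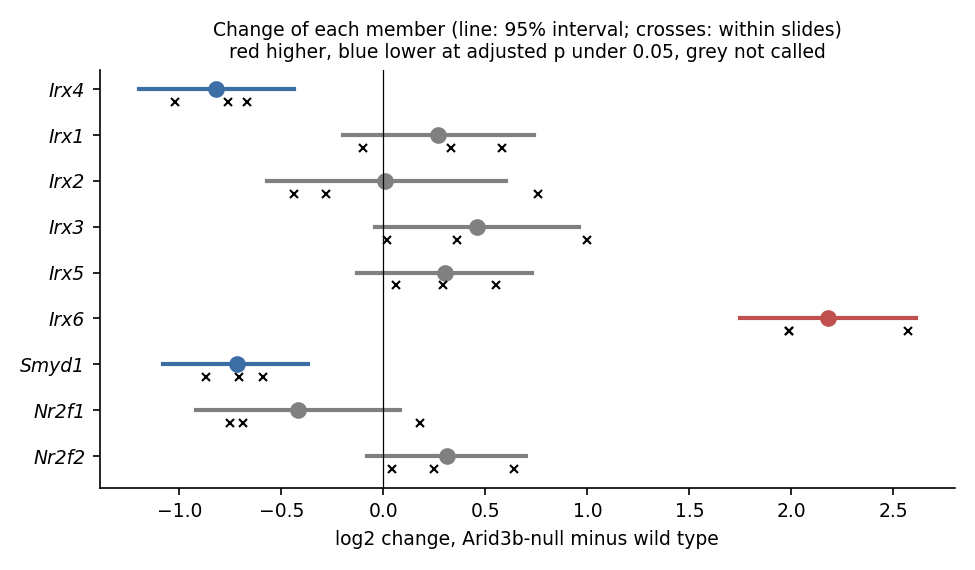
Log2 change, Arid3b-null minus wild type (horizontal axis), of each of the 9 genes with its 95% interval (line) and the difference within each of the 3 slides (crosses). Irx6 alone lies far to the right at 2.18, Irx4 (-0.82) and Smyd1 (-0.72) lie to the left with all 3 slides under 0, and the grey intervals of the other 6 genes include 0.

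The genes next to the Iroquois clusters gave a view of their surroundings. Of the 3 nearest protein-coding genes on each side of each cluster, 12 in all, 9 were measured. One of these was called, Mrpl36, a mitochondrial ribosomal protein gene on the Irx4 side of the IrxA cluster on chromosome 13. It read 3.06, 2.91 and 2.94 in wild-type pools and 2.02, 2.06 and 2.16 in null pools, a change of -0.89 (SE 0.15, limma adjusted p 0.0116), and its call was lost without null pool 2 (0.0576) and with the slide as replicate block (0.0993). Ndufs6, which lies between Irx4 and Mrpl36, changed by -0.10 (SE 0.24) and was not called. Around the IrxB cluster on chromosome 8, where Irx6 rose, Mmp2 on the Irx6 side changed by -0.09 (SE 0.23) and Fto on the Irx3 side by -0.24 (SE 0.24), neither of them called. The 8 uncalled neighbours changed by -0.29 to 0.01.

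Genes that follow Irx4, Smyd1 and Nr2f2 most closely over the 6 arrays were ranked by Pearson's r of their log2 levels, as a description. For Irx4 these were Pnmt, the enzyme that makes adrenaline (r = 0.996), Snrpa, Mrpl12 and Apex1 (0.994 each) and Gsta4 (0.993). For Smyd1 they were Psmd6 (r = 0.996), Fbxl22, an F-box gene of the cardiac sarcomere, and Tysnd1 (0.995 each), and Slc47a2 and Psmd5 (0.994 each). For Nr2f2 they were Arhgap21 (r = 0.998), Sgms1, Msn and Ptpn13 (0.996 each) and Zbtb9 (0.994). Slc47a2 was the dimmest of all these genes, so its r rests on weak signal. It read -6.01, -6.05 and -5.93 in wild-type pools and -8.68, -8.17 and -7.88 in null pools. The 6 arrays share their 2 groups and their scaling, which enters every such r.

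Irx4 was the one gene called among those that define the ventricular chamber. Of 9 ventricular genes, Irx4 included, 1 was called lower and none higher, none of the others was called, and the median change was -0.06. A single call among so few genes is near the share of 10.4% called over all genes tested. That share is the one to set beside the counts of called genes in the other lists too. Counts at an unadjusted p under 0.05 need a larger share, which was not counted. As a guide, Irx3 ranked 6574 of 21798 by p at an unadjusted limma p of 0.0659. Myl2, the ventricular regulatory myosin light chain, read 7.83, 7.41 and 7.61 in wild-type pools and 7.28, 7.64 and 7.74 in null pools, a change of -0.06 (SE 0.19) that turned to 0.09 with array weights. Myh7, the slow myosin heavy chain of ventricles, changed by 0.31 (SE 0.18), and by -0.10 after quantile normalization. Hey2, a repressor of atrial genes in the ventricle, changed by 0.35 (SE 0.17, limma adjusted p 0.24). Hand1, a factor of the outer curvature of the left ventricle, changed by -0.82 (SE 0.33, limma adjusted p 0.164), and by -0.52 without wild-type pool 3.

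No gene of the atrial chamber was called higher. Of 11 atrial genes, with Nr2f1 and Nr2f2 among them, none was called by limma in the main setting, 2 were lower and none higher at an unadjusted p under 0.05, and the median change was 0.05. The atrial myosin genes Myl7 and Myh6 changed by -0.08 (SE 0.19) and -0.08 (SE 0.21), with Myl7 at 0.09 under array weights and Myh6 at 0.03 without wild-type pool 1. Hey1, the atrial counterpart of Hey2, changed by 0.19 (SE 0.16). The lowest p among them belonged to Kcna5, an atrial potassium channel, at -0.73 (SE 0.22, limma adjusted p 0.0831, and 0.0404 with scaling to the array median), and to Tbx5 at -0.49 (SE 0.19, limma adjusted p 0.15).

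Genes of the trabeculae, the inner muscle ridges of the ventricle, included 3 that rose. Of 8 measured genes 3 were called higher and none lower, with a median change of 0.20. Nppb and Nppa, the natriuretic peptide genes, changed by 1.82 (SE 0.22, limma adjusted p 0.00432) and 1.27 (SE 0.18, limma adjusted p 0.00776). Bmp10, a growth factor of trabecular muscle, changed by 0.95 (SE 0.17, limma adjusted p 0.0154), and its call was lost without wild-type pool 2 (0.0688), wild-type pool 3 (0.0504) or null pool 2 (0.0698). The slide as replicate block ended it too (0.0862). Gja5, the connexin of trabeculae and atria, changed by -0.30 (SE 0.25, limma adjusted p 0.499).

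**Figure D3:**
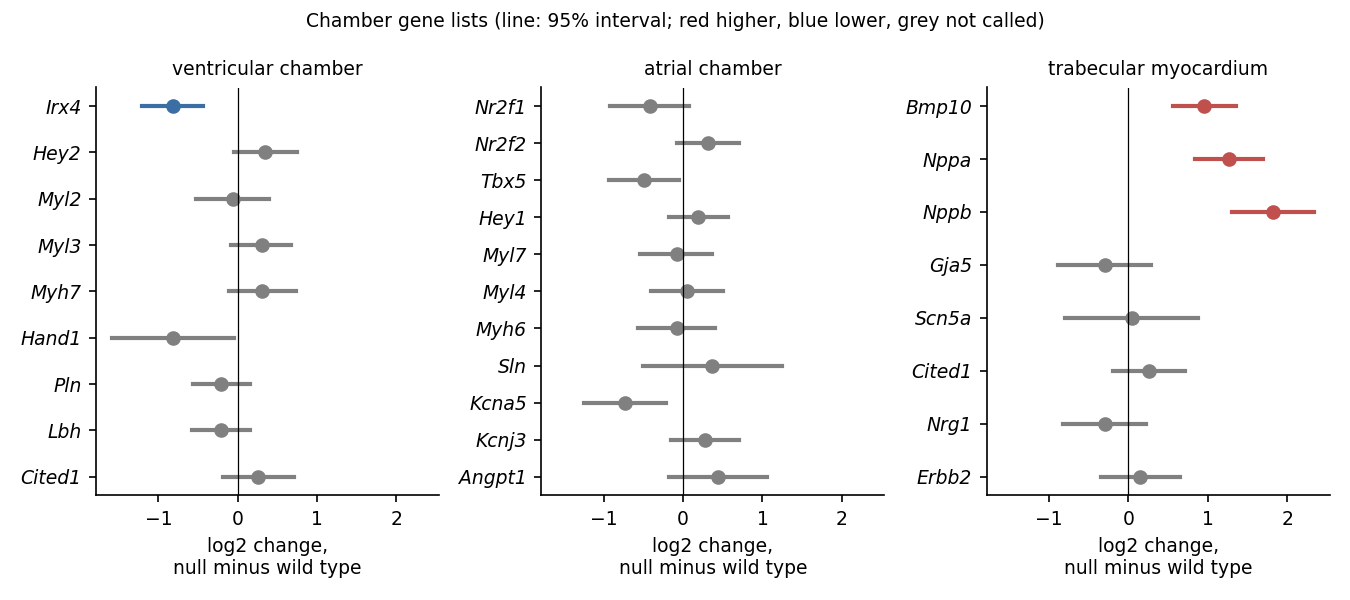
Log2 change, null minus wild type, of each measured gene of the ventricular, atrial and trabecular lists, with 95% intervals (red called higher, blue called lower, grey not called). Irx4 is the called gene among 9 ventricular genes, none of 11 atrial genes is called, and Nppb, Nppa and Bmp10 lie to the right among the trabecular genes.

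Upstream regulators, electrical genes and partners of the members were described in the same way. None of 11 cardiac transcription factors was called (2 lower and none higher at an unadjusted p under 0.05, median change -0.20). The 2 lower ones were Hand1 and Tbx5, which also belong to the ventricular and atrial lists above. Of the 11 factors, Nkx2-5 changed by 0.07 (SE 0.16), and by -0.07 with scaling to the array median. Hand2, a factor of the right ventricle, changed by -0.52 (SE 0.29), and Mef2c by -0.30 (SE 0.21). Of 6 measured electrical genes studied together with Iroquois factors 1 was called, higher: Kcnd3, a transient outward potassium channel, at 1.32 (SE 0.25, limma adjusted p 0.0202), with the call lost without wild-type pool 2 (0.0828), wild-type pool 3 (0.0647) or null pool 2 (0.07), and without the filter on dim probes (0.053). Kcnd2, the related channel that Irx5 represses in the adult ventricle, changed by 0.64 (SE 0.22, limma adjusted p 0.115).

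Among 10 genes of the SMYD family and partners of SMYD1, 1 was called lower and none higher, with a median change of -0.07. This was Unc45b, the muscle chaperone that folds myosin. It read 1.40, 1.53 and 1.14 in wild-type pools and 0.10, 0.04 and 0.14 in null pools. The change was -1.26 (SE 0.16, limma adjusted p 0.00536), and Unc45b was called lower under all 17 alternative settings. Naca, whose muscle isoform binds SMYD1 but was not measured apart from the gene's other transcripts, changed by 0.24 (SE 0.15) and was not called.

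Of 14 nuclear receptors and retinoic acid genes, the setting in which Nr2f1 and Nr2f2 act, 4 were called higher and none lower, with a median change of 0.35. These were Cyp26b1 at 1.35 (SE 0.21, limma adjusted p 0.00992) and Cyp26a1 at 1.51 (SE 0.27, limma adjusted p 0.0161), which break down retinoic acid, Dhrs3 at 1.14 (SE 0.18, limma adjusted p 0.0115), which reduces retinal, and the receptor Rarb at 0.98 (SE 0.18, limma adjusted p 0.0172). Cyp26b1 kept its call under all 17 settings. The call was lost for Cyp26a1 without wild-type pool 2 (0.0639) or null pool 2 (0.0552), for Dhrs3 without null pool 2 (0.053), and for Rarb without wild-type pool 3 (0.0586), null pool 3 (0.0619) or the filter on dim probes (0.0517). The slide as replicate block ended these 3 calls too, at 0.0503 for Cyp26a1, 0.0519 for Dhrs3 and 0.0941 for Rarb. None of 12 other TALE homeobox genes was called (1 higher and none lower at an unadjusted p under 0.05, median change 0.06). The smallest p among these were those of Pbx4, which changed by 0.59 (SE 0.19, limma adjusted p 0.099), and Pbx3, which changed by -0.50 (SE 0.23, limma adjusted p 0.219). None of 5 venous and lymphatic genes, where Nr2f2 has its vascular role, was called, and none had an unadjusted p under 0.05 (median change 0.10), with Flt4 at 0.44 (SE 0.39) and Nrp2 at -0.22 (SE 0.17). Of 7 arterial genes 1 was called higher, Sox17 at 1.22 (SE 0.16, limma adjusted p 0.00592). None of 9 endothelial and endocardial markers was called or had an unadjusted p under 0.05 (median change 0.10), with sums of 18.9 to 24.9 in wild-type pools and 21.6 to 26.7 in null pools.

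The settings of the processing bore differently on the 3 called members. Irx4 kept its call in 9 of 17 alternative settings and Smyd1 in 8, while Irx6 kept it in all 17, and no setting turned the sign of any of the 3.

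**Figure D4:**
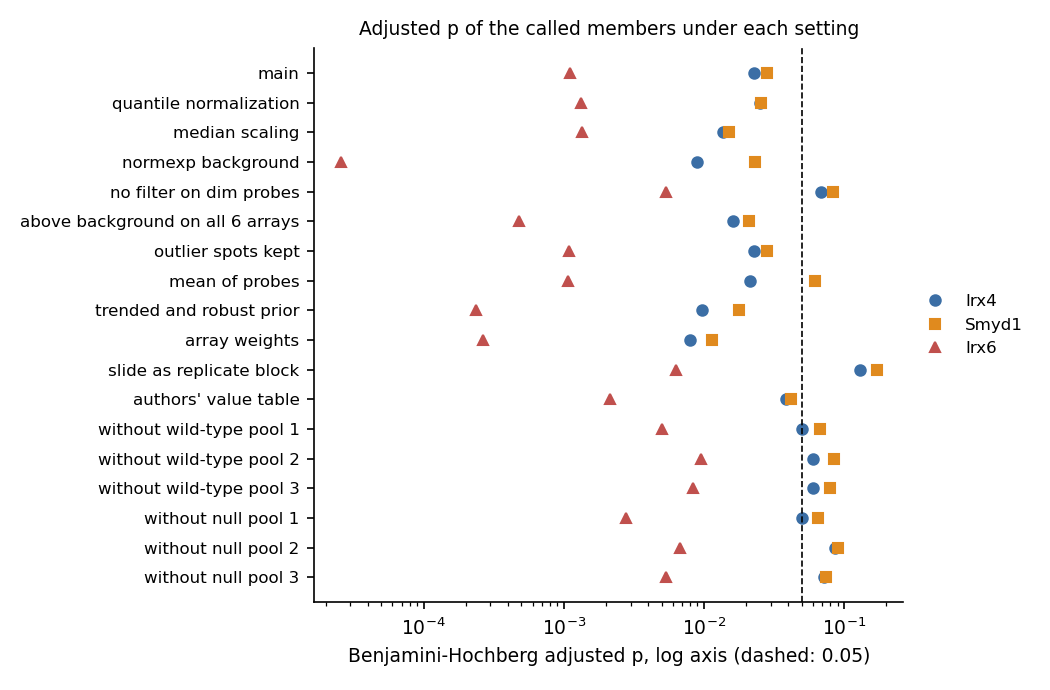
Benjamini-Hochberg adjusted p from limma (log axis, dashed line at 0.05) of Irx4, Smyd1 and Irx6 in the main fit and under 17 alternative settings. Irx6 stays left of the line throughout, and Irx4 and Smyd1 lie at it or right of it wherever 1 array is left out, with slide as block and with no dim filter.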

How the data were processed

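Scanner files of 6 Agilent one-colour mouse arrays (design 026655) were used. Per the file headers, the authors extracted them with Feature Extraction 10.7.3.1, whose processed signal is a background-corrected intensity on a linear scale. Log2 values that the authors deposited (24158 probes, column medians 6.76 to 6.77, correlation with the scanner values above 0.999 on each array) served as an alternative. The columns look aligned between arrays, but no header or label used here says how they were normalized, and they lack Irx5. Spots flagged as outliers and control spots were left out, spots of a probe averaged, and log2 intensities centred on each array's 75th percentile. Of all 39429 non-control probes, 26424 had a gene symbol through RefSeq accessions. Probes well above background on at least 3 arrays were kept (26857), and the brightest probe stood for a gene. This left 21798 genes, 15232 of them with a symbol and 2273 called (1439 higher, 834 lower). The groups were compared with lmFit and eBayes in limma 3.58.1 (R 4.3.3), two-sided. The fit was also tried on simulated data that took their means and spreads from these arrays. The 17 alternatives were array weights, a robust trended prior, averaging a gene's probes, keeping outlier spots, both looser and stricter dim-probe filters, 3 other signal treatments (quantile, median, and normexp with offset 50 on the median signal), the slide as block, the value table of the authors, and each array left out in turn. Named were all members, up to 4 called genes of each list (otherwise the 2 with the smallest p), a fixed set of chamber genes, cluster neighbours and the 5 genes most like Irx4, Smyd1 and Nr2f2. The members, lists and markers were chosen with earlier results of these data known. The result of 1 further gene list is not reported here. Promoter sequences came from RefSeq (GRCm38.p6). The number of arrays limits the precision.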

Additional observations from a re-analysis of the deposited data

How the results depend on the processing

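Among the 9 genes 1 was called higher under all 17 alternatives, always Irx6. The count called lower was 2 in the main fit, 0 without the filter on dim probes (adjusted p of Irx4 0.068, of Smyd1 0.0839), 1 with the mean of probes, and 0 to 0 when any 1 array was left out. Same-numbered arrays share a slide, and their deviations from the group means correlated at -0.40, -0.09 and -0.41 for numbers 1 to 3. The numbers were not taken as pairing in the main fit. Negative values do not show the arrays of a slide to be independent, and the SE of a fit without the block can then be too small. With the slide as replicate block 0 were called lower (limma adjusted p of Irx4 0.13, of Smyd1 0.171) and Irx6 stayed called (0.00636). Genes called over all tested were 2273, against 1037 without the dim filter, 4872 with array weights, 740 with the block (537 higher, 203 lower) and 835 to 1748 leaving out 1 array. Median scaling moved the median change of all genes from 0.03 to -0.11 and the split to 1093 higher and 1435 lower; it was 0.16 after normexp and 0.17 without the dim filter. Changes near 0 turned sign: Irx2 to -0.12 (median scaling), -0.01 (normexp), -0.03 (mean of probes), -0.15 (array weights), -0.14 with wild-type pool 3 out and -0.20 with null pool 3 out; Myl2 to 0.09 (array weights) and, over left-out arrays, between -0.17 and 0.07 (0.04 with wild-type pool 1 out); Myl7 to 0.09 with array weights, and between -0.18 and 0.09 over left-out arrays; Myh6 to between -0.26 and 0.03 over left-out arrays; Myh7 to -0.10 by quantile normalization and in the authors' table; Nkx2-5 to -0.07 by median scaling. The block also ended the calls of Bmp10, Cyp26a1, Dhrs3, Rarb and Mrpl36. Among the tissue markers it ended those of Sox3, Tubb3, Dcx, Nkx2-1, Pax8, Tfap2a, Tbx6 and Gata1. The cause was not tested.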

Other observations

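Markers of other tissues in the dissected piece moved in both directions. Wt1, a transcription factor of the epicardium, rose by 1.42 (SE 0.24, limma adjusted p 0.0129), and was the called gene among 6 epicardial markers (median change 0.49, sums 4.87 to 5.21 in wild-type pools and 5.47 to 8.90 in null pools). The levels of Wt1 were 0.69, -0.01 and 0.13 in wild-type pools and 1.97, 1.64 and 1.44 in null pools. The call was lost without wild-type pool 2 (0.0579) or 3 (0.0519). Nkx6-1, a homeobox gene of the ventral neural tube and the pancreas, fell by 2.90 on the log2 scale, from -1.17, -0.33 and -0.52 to -3.88, -3.39 and -3.44 (SE 0.26, limma adjusted p 0.00141), and was called lower under all 17 alternatives. Of 7 neural crest markers 1 was called higher, Tfap2a at 0.91 (SE 0.17, limma adjusted p 0.0208, 0.109 with the slide as block, 0.0607 without the filter on dim probes, 0.0584 and 0.0663 without wild-type pools 1 and 3, 0.0665 and 0.0744 without null pools 2 and 3). Of 7 primitive erythroid markers 1 was called higher, and 0 to 6 over the alternatives (6 at an unadjusted p under 0.05, median change 1.15, sums 240 to 503 in wild-type pools and 656 to 972 in null pools), of 4 measured macrophage markers 2 (median 1.12) and of 6 paraxial mesoderm markers 1 (median 0.21). None of 3 measured trophoblast markers was called by limma and 1 was higher at an unadjusted p under 0.05 (median 2.13, and 1.07 without null pool 3). Their sums were 1.05 to 5.92 in wild-type pools and 9.19 to 43.8 in null pools. Prl3d1 read -3.19, -2.99 and -3.30 in wild-type pools and -3.21, -0.97 and 4.78 in null pools, so its mean change rests mostly on null pool 3.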
